A study of Mus musculus with 6 samples.

Results

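The nuclear genes for oxidative phosphorylation were followed in macrophages lacking DRP1, the GTPase that divides mitochondria. Members were all genes that GENCODE annotates as protein-coding on GRCm39 and whose symbol begins with Nduf followed by a, b, c, s or v, with Sdha to Sdhd, with Uqcr, with Cox4 to Cox8 or with Atp5, and whose estimated counts summed to at least 10 over the 6 libraries. Of 98 matching genes, 93 met that minimum, among 18506 genes tested, and Ndufb11b, Cox7b2, Cox8b, Cox8c and a second gene identifier carrying the Atp5po symbol did not. Complex I contributed 47 members, complex II 4, complex III 8, complex IV 16 and complex V 18. The symbol rule also takes in 8 complex I assembly factors (Ndufaf1 to Ndufaf8), the acyl carrier protein Ndufab1, the complex V inhibitor Atp5if1, the supercomplex factor Cox7a2l and Cox5b-ps, a gene named as a pseudogene but annotated as protein-coding. It leaves out cytochrome c, Cyc1 and the 13 subunits encoded by mitochondrial DNA, which are given at the end.

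Oxidative phosphorylation passes electrons from NADH (complex I) or succinate (complex II) through ubiquinone, complex III and cytochrome c to oxygen at complex IV, and complex V, the ATP synthase, uses the resulting proton gradient to make ATP. All complexes except complex II are built from both nuclear and mitochondrial gene products, so that the nuclear subunits are made in the cytosol and imported. In macrophages, oxidative phosphorylation is known to be used heavily by alternatively activated cells, while inflammatory activation shifts cells toward glycolysis.

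Bone marrow-derived macrophages (BMDMs) were differentiated for 7 days in medium containing L929 cell supernatant and were held for 8 hours under hypoxia with serum starvation (HSS), used to model ischemia in culture, at 2.1% oxygen as the labels give it. The 3 WT libraries came from LysM-Cre+/- Drp1+/+ mice and 3 Drp1 KO libraries from LysM-Cre+/- Drp1 fl/fl mice, so both groups carried the Cre transgene, driven by the lysozyme M promoter of myeloid cells. Mice of both sexes were 8 to 12 weeks old. The methods describe pooling the marrow of 2 mice per genotype without saying whether each library was a separate pool, so the p-values measure the spread between libraries, part of which may be technical. No library without HSS was analysed here.

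Depth, as summed estimated counts, ranged over 24269850 to 28650715 for WT and over 23389488 to 32231206 for Drp1 KO. Dnm1l, which encodes DRP1, had 72.7, 69.9 and 75.1 CPM, counts scaled to the size of the library, in WT and 58.7, 60.7 and 66.3 in Drp1 KO, without overlap, a log2 fold change of -0.23 ± 0.09 (SE) with an adjusted p of 0.248 (edgeR quasi-likelihood test). These are reads from the whole gene, and the deleted exons were not counted apart. The 10 macrophage markers summed to 18050 to 19470 CPM in WT and 16320 to 18910 in Drp1 KO, most of it from Lyz2 and Mpeg1. Of them 3 passed an adjusted p under 0.05 in edgeR: Fcgr1 was higher (mean of 65.8 CPM in WT and 167 in Drp1 KO, adjusted p = 0.000322), and Mertk (249 and 173 CPM, 0.0236) and Csf1r (953 and 666 CPM, 0.034) were lower. All 8 neutrophil markers that could be tested had positive fold changes, with sums of 90.3 to 98.5 CPM in WT and 118.6 to 221.4 in Drp1 KO, mostly from Mmp8 (means of 78.6 and 143 CPM, overlapping), while Elane, Ly6g and Retnlg, also on that list, were under the count minimum. By edgeR 5 of the 8 had an unadjusted p under 0.05, with adjusted p of 0.107 to 0.260, and these 5 were higher in a fit that pairs libraries of the same number (S100a9 with an adjusted p of 7.85e-05, S100a8 of 0.00145, Ngp of 0.00264, Ltf of 0.0194 and Mmp8 of 0.0232). Dendritic cell markers (6 of 8 tested) summed to 44.3 to 64.0 and 31.96 to 51.3 CPM, fibroblast markers (7 of 8) to 14.8 to 22.4 and 13.7 to 16.5, and lymphocyte markers (4 of 8) to 4.01 to 5.77 and 2.45 to 4.74. Their part in the results was not tested, and in bulk RNA fewer cells of a type and less RNA per cell cannot be told apart.

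The libraries also differed by genotype in the deposited effective lengths of transcripts. The effective length is, for long transcripts, about the transcript length less the mean fragment length. It is not set by fragment length alone, since it exceeded the length in at least 1 library for 17986 of 116873 transcripts. For transcripts longer than 3000 bases, the median of length less effective length was 310.8, 312.9 and 314.3 bases in WT. In Drp1 KO it was 273.6, 275.1 and 258.4. Transcripts shorter than 400 bases took 0.598% to 0.753% of the counts in WT and 0.789% to 1.04% in Drp1 KO, again without overlap. OXPHOS mRNAs are short, with a median length of 696 bases for members against 2060 for all genes tested, so the effect of fragment length on them and the effect of genotype cannot be told apart in these libraries.

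Some of these mRNAs share stretches with processed pseudogenes, and a read lying wholly inside such a stretch matches both genes. Gm10221, on chromosome 5 from 24786552 to 24786860 (GRCm39, minus strand, within an intron of Abcf2), is identical over its 309 bases to the coding sequence of Atp5mg, a membrane subunit of the ATP synthase, except for the stop codon that it lacks. Ndufb4c, on chromosome 15 from 73681356 to 73681745 (minus strand, within an intron of Mroh5), equals the coding sequence of Ndufb4, a membrane-arm subunit of complex I, at all 390 bases. Ndufa12-ps, on chromosome 5 from 130217236 to 130217637 (plus strand, within an intron of Rabgef1), differs from Ndufa12 at 2 of 402 bases. The first 120 coding bases of the 2 identical pairs, and coding bases 75 to 194 of Ndufa12 with its copy, are given 5′ to 3′ from the GENCODE transcripts, with the 1 differing base of that window in capitals.
Atp5mg and Gm10221: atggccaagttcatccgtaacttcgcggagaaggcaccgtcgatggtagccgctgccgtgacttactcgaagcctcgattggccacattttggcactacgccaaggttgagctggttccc
Ndufb4 and Ndufb4c: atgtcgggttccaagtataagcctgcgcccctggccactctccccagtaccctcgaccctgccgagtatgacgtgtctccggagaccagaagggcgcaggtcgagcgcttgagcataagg
Ndufa12: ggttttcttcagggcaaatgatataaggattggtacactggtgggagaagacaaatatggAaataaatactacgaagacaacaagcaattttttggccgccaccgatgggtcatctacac
Ndufa12-ps: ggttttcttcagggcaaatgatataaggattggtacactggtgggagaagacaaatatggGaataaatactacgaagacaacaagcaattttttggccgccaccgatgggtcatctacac

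Levels within the set were compared as the deposited TPM, a measure per length. The most abundant member was Atp5f1b, the catalytic beta subunit of the ATP synthase, at 751 ± 84.6 TPM (SD, n = 3) in WT and 711 ± 104 in Drp1 KO. Cox6c followed at 690 ± 32.2 and 546 ± 66.7 TPM, which lies within the spread of Atp5f1b in WT. The ATP synthase inhibitor Atp5if1 stood at 578 ± 22.2 and 428 ± 31.3 TPM, the complex III subunit Uqcrb at 525 ± 8.49 and 380 ± 43.5, and the complex I subunit Ndufc1 at 505 ± 7.79 and 345 ± 50.5. The median member of each complex was at 47.7 TPM for complex I, 84.7 for II, 113 for III, 119 for IV and 175 for V, over all 6 libraries.
At the other end were isoforms known from other tissues. Ndufa4l2, a hypoxia-inducible relative of Ndufa4, had 18 estimated counts in all, and no library was much above the floor of 3 counts (0.0917 to 0.136 CPM). Cox4i2, the lung and hypoxia isoform, had 39 counts, against 156 to 174 CPM for Cox4i1 in WT, and the testis isoform Cox6b2 had 65 counts against 48.8 to 56.7 CPM for Cox6b1. The muscle isoform Cox7a1 was at 1.03 to 1.69 CPM in WT and 1.23 to 1.47 in Drp1 KO, against 18.4 to 24.6 and 22.2 to 26.0 for Cox7a2.

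**Figure D1:**
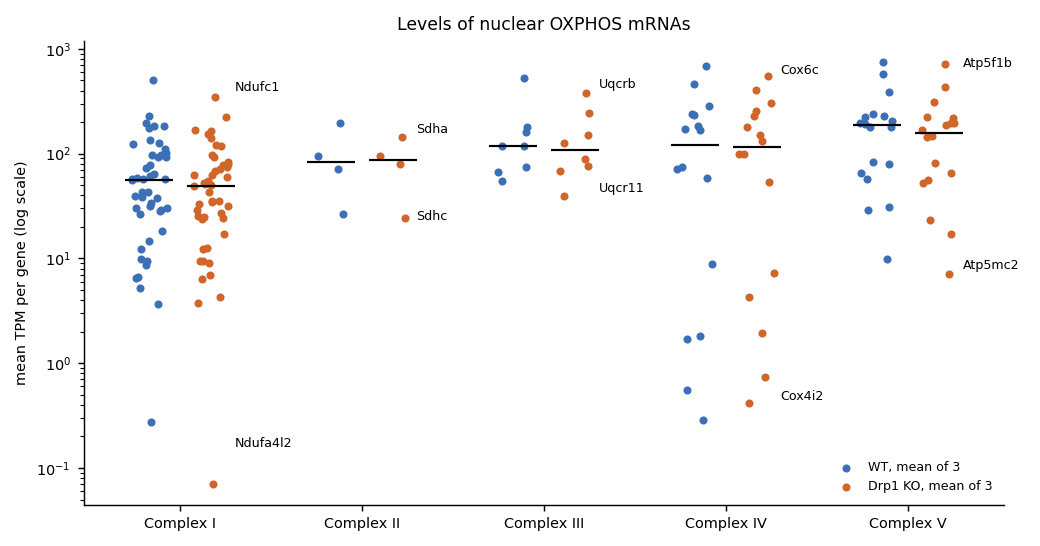
Mean TPM of each of the 93 members (log axis) in WT (blue) and Drp1 KO (orange), by complex, each point a gene and the mean of 3 libraries; black bars are medians and the highest and lowest member of each complex are named. Levels span from 0.172 TPM (Ndufa4l2) to 731 TPM (Atp5f1b) over all libraries.

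The main comparison asked which of these mRNAs differed between Drp1 KO and WT BMDMs under HSS. Only Ndufs5 and Atp5mg passed an adjusted p under 0.05 in edgeR's quasi-likelihood test, both lower in Drp1 KO; that is 2 of 93 members lower, where 1.06% of all genes tested were lower and 2.29% higher. No member passed with a higher level in this edgeR fit. With Drp1 KO library 1 left out, 15 members passed, 2 higher and 13 lower, among them Ndufa13, Ndufv3, Uqcrb and Uqcr11. Calls over all genes rose too in that fit, to 491 higher and 413 lower of 18217 tested. At an unadjusted p under 0.05, 6 members were higher and 14 lower, 6.45% and 15.1% of the set, against 9.02% and 7.39% of all genes. DESeq2 called 4 higher and 8 lower of the 89 members to which it gave an adjusted p, against 5.05% and 3.75% of all genes with one. At the study's threshold, an absolute log2 fold change over 0.322 with an unadjusted p under 0.05, 6 members were higher and 10 lower, 6.45% and 10.8% of the set, against 7.18% and 5.48% of all genes. The groups did not overlap for 10 members with higher and 16 with lower levels in Drp1 KO, against 11.7% and 10.3% of all genes.
With the replicate number as a block, a pairing found in the data, 6 members rose and 14 fell at an adjusted p under 0.05, against 6.73% and 5.22% of all genes. The median log2 fold change of the members was -0.03, with 42 positive and 51 negative, against 0.0046 for all genes. The median was -0.03 in complex I, -0.0092 in II, -0.06 in III, 0.06 in IV and -0.15 in V. Between libraries of a group, the SD of the members' median log2 level was 0.09, larger than the shift of the whole set.

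**Figure D2:**
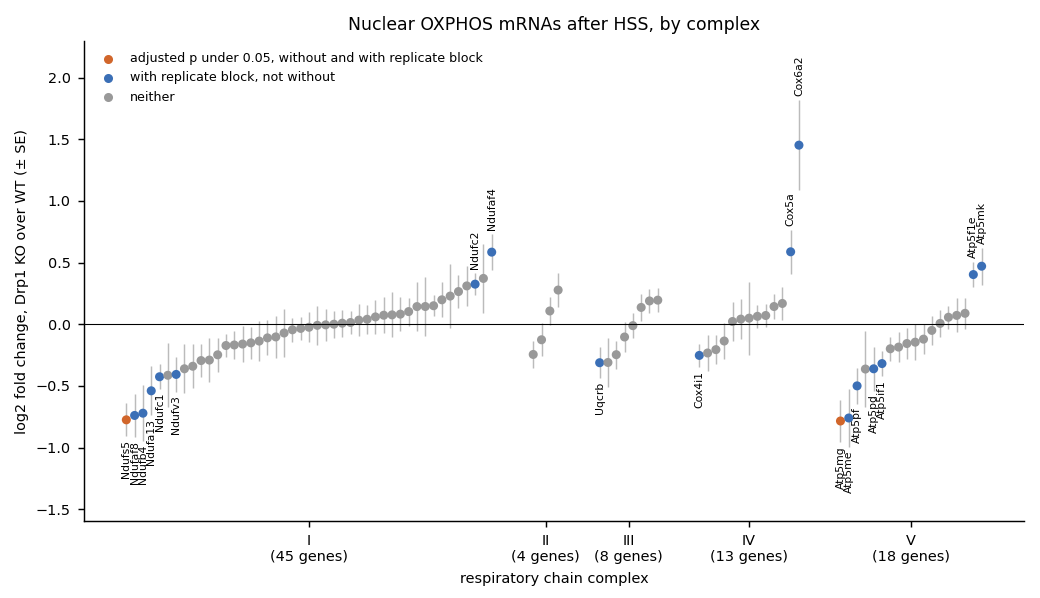
log2 fold change of Drp1 KO over WT with its SE for 88 members with at least 100 estimated counts, ordered within each complex. Orange marks Ndufs5 and Atp5mg, called without and with the replicate block, blue 17 members called with the block but not without it, and grey the rest, most of which lie within 0.5 of 0.

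Summed over all 93 members, the set took 4917, 4660 and 4548 CPM in WT and 4811, 4314 and 4055 in Drp1 KO. The groups overlapped, with means of 4708 ± 189 and 4393 ± 384 (SD, n = 3) and a ratio of 0.933. As a share of TPM the same genes took 1.15%, 1.15% and 1.17% in WT and 1.04%, 1.03% and 0.986% in Drp1 KO, without overlap. TPM divides by the effective length. For transcripts of 500 to 700 bases its median was 0.618 to 0.628 of the length in WT and 0.643 to 0.670 in Drp1 KO. That is a larger divisor for short mRNAs in Drp1 KO, and its part in the TPM shares was not tested. Drp1 KO library 3 held the lowest value of 42 of the 89 members with a mean of at least 1 CPM. Over all 12248 genes at that level it held the lowest of 2412. The libraries numbered 1 held the highest of 26 (WT) and 23 (Drp1 KO) of these members, and of 2640 and 2714 of all such genes.

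In complex I, Ndufs5, an intermembrane-space subunit of the membrane arm (chromosome 4, 123606481 to 123612002, GRCm39), had 39.1, 42.5 and 35.3 CPM in WT and 25.6, 23.9 and 18.8 in Drp1 KO. Every Drp1 KO library was below every WT library, with a log2 fold change of -0.78 ± 0.13 (SE) and an adjusted p of 0.0129 in edgeR, or 0.000359 with the block. Leaving out WT library 2 or Drp1 KO library 2 ended the call, with adjusted p of 0.0815 and 0.0529, and so did length-scaled counts (-0.50, adjusted p = 0.078). Its 2 leading transcripts differed in opposite directions. The 525-base transcript was lower, at 31.8, 36.6 and 27.9 CPM in WT and 16.5, 14.0 and 9.79 in Drp1 KO, while the 350-base transcript was higher, at 6.84, 5.73 and 6.88 in WT and 9.07, 9.71 and 8.89 in Drp1 KO.
Among the core subunits that carry the flavin, the iron-sulfur clusters and the ubiquinone site, log2 fold changes were -0.17 for Ndufs1, 0.07 for Ndufs3, 0.08 for Ndufs7, -0.07 for Ndufs8, -0.16 for Ndufv1 and -0.03 for Ndufv2, with adjusted p between 0.398 and 0.927. Of the 8 members of the NADH-oxidizing N module 6 had negative fold changes, with a median of -0.16, and of the 8 in the ubiquinone-reducing Q module 5 did, with a median of -0.04. Ndufv3, an accessory subunit of the N module, had 82.1, 68.3 and 71.9 CPM in WT and 68.5, 51.7 and 47.6 in Drp1 KO, which overlap by a small margin, and passed with the block but not without it (adjusted p of 0.172 and 0.00908).
The 20 membrane-arm subunits differed in both directions. Ndufc1 had 61.5, 60.8 and 56.8 CPM in WT and 42.2, 49.2 and 41.8 in Drp1 KO, with an adjusted p of 0.0512 and 0.00628 with the block. Ndufc2 went the other way, with 46.6, 44.2 and 42.0 CPM in WT and 55.7, 57.1 and 53.5 in Drp1 KO, an adjusted p of 0.0943 and 0.0187 with the block. The higher Ndufc2 level lay in its 470-base transcript, at a mean of 18.6 ± 3.37 and 30.1 ± 2.34 CPM, since the 683-base transcript had 25.6 ± 1.37 and 25.3 ± 2.84. Ndufa13 passed the adjusted p with the block but not without it, at 43.8, 36.7 and 37.4 CPM in WT and 37.2, 24.4 and 19.7 in Drp1 KO (adjusted p of 0.204 and 0.00977). Across the membrane arm 1 member rose and 4 fell with the block.
Assembly factors, which help build complex I and are not part of it, gave a median of 0.19 on the log2 scale, 6 of 8 being positive. Ndufaf4 had 9.19, 8.55 and 9.06 CPM in WT and 11.2, 15.5 and 13.4 in Drp1 KO, with an adjusted p of 0.0641 and 0.0143 with the block. Ndufaf8 moved the other way, from 5.74, 5.62 and 5.49 CPM to 3.68, 3.57 and 2.85, with an adjusted p of 0.0505 and 0.00983 with the block. Neither set of libraries overlapped. Ndufa4, now placed in complex IV by structural work, had 12.5, 20.1 and 20.8 CPM in WT and 14.3, 14.1 and 13.8 in Drp1 KO, which overlap (adjusted p = 0.393).

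Complex II, succinate dehydrogenase, had no member past an adjusted p under 0.05 without or with the block, and none past the study's threshold. Its flavoprotein Sdha had 187, 177 and 180 CPM in WT and 177, 143 and 139 in Drp1 KO, with a log2 fold change of -0.25, an unadjusted p of 0.0484 and an adjusted p of 0.300 in edgeR. The iron-sulfur subunit Sdhb was at 82.0, 65.0 and 65.4 against 79.1, 78.2 and 71.4 CPM, and the membrane anchors Sdhc and Sdhd had log2 fold changes of -0.13 and 0.28. All 4 overlapped between the groups.

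In complex III, Uqcrb, a small subunit near the ubiquinone site, passed the adjusted p with the block but not without it, and no other member of the complex passed in either fit. It had 109, 106 and 103 CPM in WT and 103, 80.7 and 73.3 in Drp1 KO, with an adjusted p of 0.240 without the block and 0.0367 with it. Uqcr10 was lower without overlap, at 22.3, 20.6 and 22.0 against 17.6, 20.1 and 16.9 CPM, and Uqcr11 overlapped at a log2 fold change of -0.31, both short of the threshold without the block (adjusted p of 0.318 and 0.514). The core protein Uqcrc2 stood at 51.8, 49.8 and 47.7 CPM in WT and 52.9, 61.3 and 56.8 in Drp1 KO, without overlap, Uqcrc1 had a log2 fold change of -0.10, Uqcrq one of 0.19 and the Rieske iron-sulfur protein Uqcrfs1 one of 0.14. None of these 4 passed without the block (adjusted p of 0.355 to 0.769).

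In complex IV, Cox6a2, the heart and muscle isoform of subunit 6a, had the largest fold change among the members with at least 100 counts. It had 0.733, 0.675 and 0.477 CPM in WT and 2.09, 2.02 and 1.07 in Drp1 KO, a log2 fold change of 1.45 ± 0.37 (SE), with an adjusted p of 0.0654 and 0.00781 with the block. Its level stayed far below that of the ubiquitous Cox6a1, at 22.5, 19.9 and 21.1 CPM in WT and 27.6, 19.2 and 17.9 in Drp1 KO. Cox5a, a matrix-side subunit, had 27.2, 19.9 and 21.4 CPM in WT and 43.4, 32.4 and 27.2 in Drp1 KO, the lowest Drp1 KO library just above the highest WT library (adjusted p of 0.119 and 0.00351 with the block).
Cox4i1, the ubiquitous isoform of subunit 4, had 174, 161 and 156 CPM in WT and 139, 145 and 127 in Drp1 KO, lower without overlap, with an adjusted p of 0.210 and 0.047 with the block. Cox5b, another matrix-side subunit, had a log2 fold change of -0.23 and overlapping groups. The remaining subunits named by function, Cox6b1, Cox6c, Cox7a2, Cox7b and Cox8a, had log2 fold changes from -0.21 to 0.17, none past the threshold, and Cox7a2l, the supercomplex factor, one of 0.14. Cox5b-ps had 23.1 estimated counts in all, near the floor in every WT library, and is not interpreted.

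Complex V had the lowest median, and with the block 2 of its 18 members were higher and 5 lower. Atp5mg (chromosome 9, 44800118 to 44832055, GRCm39) had 107, 90.3 and 76.6 CPM in WT and 67.0, 50.1 and 42.3 in Drp1 KO, without overlap, a log2 fold change of -0.79 ± 0.17 (SE) and an adjusted p of 0.0383, or 0.000115 with the block. Leaving out any library other than Drp1 KO library 1 ended its call, with adjusted p from 0.0544 to 0.167. So did counting its pseudogene copies with it (-0.19, adjusted p = 0.581), as given below. Atp5me, also a membrane subunit, was at 4.70, 4.65 and 6.07 CPM in WT and 4.09, 2.35 and 2.76 in Drp1 KO, with an adjusted p of 0.127 and 0.0265 with the block.
In the peripheral stalk, which holds the head against rotation, the median log2 fold change of 4 members was -0.28. Atp5pf had 69.0, 76.5 and 68.7 CPM in WT and 59.2, 53.8 and 38.6 in Drp1 KO, without overlap (adjusted p of 0.106 and 0.0101 with the block), and Atp5pd 89.7, 78.2 and 59.9 against 73.6, 55.2 and 48.6, which overlap (0.350 and 0.013). Atp5if1, the inhibitor that blocks ATP hydrolysis by the enzyme when the proton gradient is lost, had 152, 161 and 153 CPM in WT and 140, 123 and 110 in Drp1 KO, without overlap (0.145 and 0.0279).
Atp5f1e, the epsilon subunit of the central stalk, rose with the block. It had 33.2, 30.9 and 31.9 CPM in WT and 41.0, 39.4 and 46.5 in Drp1 KO, without overlap, with an adjusted p of 0.0669 and 0.0114 with the block. Atp5mk, a membrane subunit, had 27.6, 26.9 and 32.5 CPM in WT and 31.1, 45.4 and 44.0 in Drp1 KO (0.138 and 0.0193). The alpha and beta subunits of the head, Atp5f1a and Atp5f1b, had log2 fold changes of -0.12 and -0.05, and the c-ring genes Atp5mc1, Atp5mc2 and Atp5mc3, which encode the same mature protein, -0.15, -0.36 and 0.07, all with overlapping groups.

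**Figure D3:**
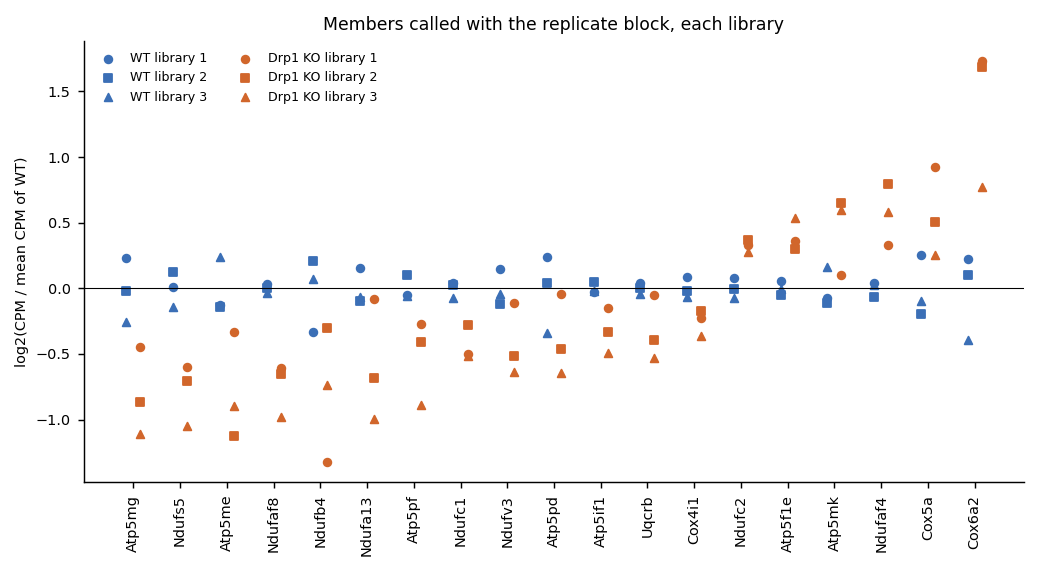
CPM of each library relative to the WT mean (log2) for 19 members called with the replicate block, WT in blue and Drp1 KO in orange, the symbol giving the library number. Drp1 KO library 3 is the lowest in most of the members that fell, and library 1 is closest to WT in several of them.

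The copies shown above had fold changes opposite to those of their parents. Gm10221 had 2.85, 11.99 and 6.95 CPM in WT and 36.0, 27.9 and 35.5 in Drp1 KO, without overlap, a log2 fold change of 2.18 with an adjusted p of 0.0112. Atp5mg and all its copies together had 112, 103 and 84.7 CPM in WT and 105, 79.5 and 79.3 in Drp1 KO, which overlap, with a log2 fold change of -0.19 and an adjusted p of 0.581, so the call for Atp5mg was lost once the copies were counted with it.
Ndufb4 had 25.5, 37.1 and 33.8 CPM in WT and 12.8, 26.1 and 19.3 in Drp1 KO (adjusted p of 0.133 and 0.00116 with the block), while Ndufb4c had 10.9, 14.8 and 14.6 in WT and 26.8, 28.7 and 27.9 in Drp1 KO, without overlap (adjusted p = 0.00261). Their sum was 36.4, 51.9 and 48.4 CPM in WT and 39.7, 54.8 and 47.2 in Drp1 KO, with a log2 fold change of 0.05 and an adjusted p of 0.931. Ndufa12 and its copy also had log2 fold changes of opposite sign, -0.36 and 1.04, neither past the threshold, and their sum remained negative at -0.22. Adding the copies left Ndufs5 at -0.77 (adjusted p = 0.013). In all, 100 genes, 99 annotated as pseudogenes and the other Cox5b-ps, matched 38 members at 90% identity or more over at least 80% of the copy's length, of which 26 had at least 10 counts, Cox5b-ps among them, and in 3 members a copy held more than 10% of the parent's count.

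**Figure D4:**
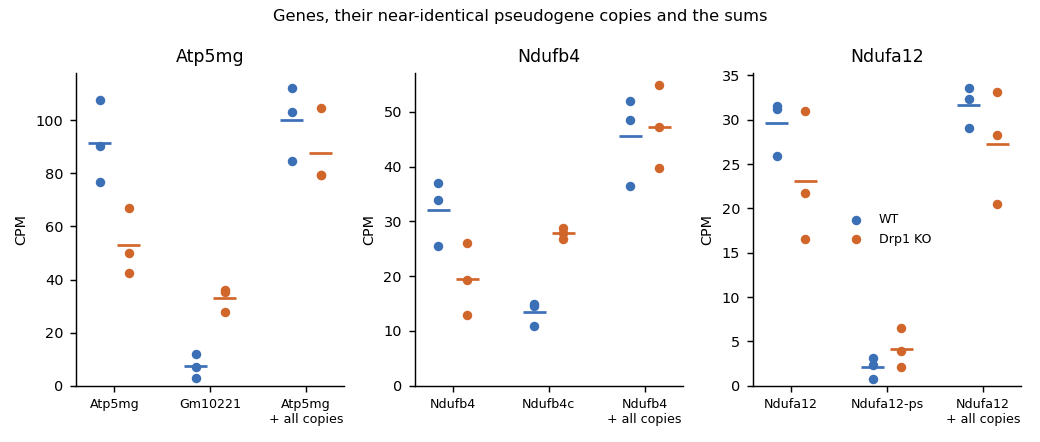
CPM of Atp5mg, Ndufb4 and Ndufa12, of their most abundant pseudogene copy and of the parent with all copies, in each library (points) with group means (bars), WT in blue and Drp1 KO in orange. Mean levels of the parents are lower and of the copies higher in Drp1 KO, while libraries overlap for Ndufb4, Ndufa12 and Ndufa12-ps, and the sums overlap between the groups in all 3 panels.

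Transcripts of 1 gene showed a like pattern. In 60 members 2 transcripts had at least 100 estimated counts, and in 43 of these (71.7%) the shorter of the 2 leading transcripts had the higher ratio of Drp1 KO to WT, by a median of 0.34 on the log2 scale. Over all 7985 genes with 2 such transcripts the share was 52.8% and the median 0.04, and over the 675 genes whose shorter transcript was under 600 bases it was 61.6% and 0.18. Of the 34 members with a shorter transcript under 600 bases, 26 had the higher ratio there.
In 8 of the 60 members (13.3%) the 2 transcripts differed in opposite directions without overlap between the groups, as they did in 3.54% of the 7985 genes with such a pair. The 1521-base transcript of Uqcrq had 21.3, 22.3 and 18.2 CPM in WT and 8.36, 10.9 and 9.68 in Drp1 KO, while its 405-base transcript had 23.4, 26.7 and 22.9 in WT and 39.3, 41.5 and 37.0 in Drp1 KO. In Atp5pd, a 625-base transcript went from 85.5, 74.5 and 51.8 to 46.0, 44.8 and 34.5 CPM, and a 486-base transcript, listed at 0 in WT libraries 1 and 2, had 23.5, 7.15 and 12.2 in Drp1 KO. Ndufs4, Ndufs5, Cox7a2, Uqcrc1 and Atp5po had the longer transcript lower and the shorter one higher, and Uqcr10 had the reverse. The values are kallisto's division of shared reads between transcripts, without the error of that division, and the share of fragment length in them was not tested.

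**Figure D5:**
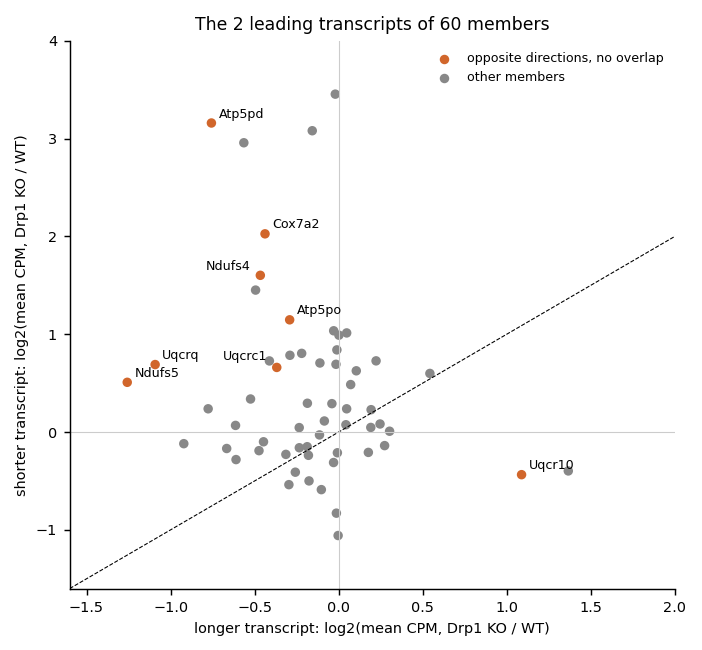
log2 ratio of mean CPM, Drp1 KO over WT, for the shorter (y axis) against the longer (x axis) of the 2 leading transcripts in each of 60 members; the dashed line marks equal ratios. Orange marks the 8 members whose transcripts differed in opposite directions without overlap, and 43 of 60 points lie above the line.

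Promoters were read from RefSeq windows on GRCm38.p6, from 250 bases before to 50 after each start, with 79 windows found for 74 of the 93 members. The motifs searched on both strands were the core site of NRF1 (CGCANGCG), the ETS core bound by GABP (CCGGAA), and the sites of YY1 (AAGATGGCG) and of ERR (TCAAGGTCA), factors known for control of these genes; none of the 4 contains another. The NRF1 core was present in 39.2% of member windows and 8.21% of all 32851 windows (11.1% of those of protein-coding genes). For the ETS core the shares were 35.4% and 14.9% (18.7% for protein-coding genes), and for YY1 10.1% and 1.40% (1.83%). For ERR they were 2.53%, from 2 member windows, and 0.423% (0.334%). By complex, NRF1 cores lay in 15 of 43 windows of complex I, 2 of 3 of II, 3 of 5 of III, 1 of 11 of IV and 10 of 17 of V.
The 250 bases before the starts of both members past the adjusted p are shown because their mRNAs are the ones called, with motif matches in capitals. Ndufs5 lies at chr4:123718187-123718436 and Atp5mg at chr9:44920743-44920992 (GRCm38.p6, both minus strand); Ndufs5 holds 1 NRF1 core, and Atp5mg an NRF1 core and an ETS core.
Ndufs5: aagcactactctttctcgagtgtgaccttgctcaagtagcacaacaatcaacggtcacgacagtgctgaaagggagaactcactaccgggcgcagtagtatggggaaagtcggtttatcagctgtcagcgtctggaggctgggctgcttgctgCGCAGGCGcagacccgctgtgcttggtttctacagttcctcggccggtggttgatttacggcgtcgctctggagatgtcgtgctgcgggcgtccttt
Atp5mg: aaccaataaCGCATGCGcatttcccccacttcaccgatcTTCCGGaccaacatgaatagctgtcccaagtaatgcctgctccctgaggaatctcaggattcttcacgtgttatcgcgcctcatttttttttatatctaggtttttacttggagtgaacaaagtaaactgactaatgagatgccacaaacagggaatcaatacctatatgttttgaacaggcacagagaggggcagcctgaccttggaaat
The mRNAs of these factors did not pass the test. Nrf1 had a log2 fold change of 0.05, Gabpa of -0.03, Yy1 of -0.0033 and Esrra of 0.17, and none of the 12 regulators listed passed an adjusted p under 0.05 with or without the block. Gabpb1, a partner of GABP alpha, had the smallest unadjusted p among them, at a mean of 16.4 CPM in WT and 21.1 in Drp1 KO (adjusted p = 0.231).

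Outside the symbol rule, 83 further genes of the pathway were tested, and none passed an adjusted p under 0.05 in edgeR without the block; 18 had an unadjusted p under 0.05, against 16.4% of all genes, and DESeq2 called 4, against 8.80% of all genes with an adjusted p. With the block 5 rose and 6 fell, against the same 6.73% and 5.22% of all genes. Assembly factors supplied 8 of these 11, and also made up most of the 83 genes, with 12, 4, 9, 25 and 5 tested for complexes I to V. The complex II assembly factor Sdhaf2 was higher (41.5 and 56.0 CPM, adjusted p of 0.0574 and 0.0143 with the block), as was the complex IV factor Coa5 (123 and 167 CPM, 0.0711 and 0.00508), while the complex IV factor Pet100 was lower (49.8 and 36.4 CPM, 0.0776 and 0.00569). Cytochrome c1 (Cyc1) and cytochrome c (Cycs) had log2 fold changes of 0.13 and 0.19.
The 13 mRNAs encoded by mitochondrial DNA gave a median of -0.46 on the log2 scale, 12 being negative, and 3 of them, mt-Nd6, mt-Co2 and mt-Nd5, fell with the block. Their sum ranged from 3092 to 6742 CPM in WT and 3613 to 5303 in Drp1 KO, so the groups overlapped. WT library 1 was the lowest WT library for each of the 13, with mt-Co1 at 2123, 4357 and 3526 CPM in the WT libraries. The libraries were selected for polyadenylated RNA.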

How the data were processed

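RNA-seq libraries of BMDMs, 3 WT and 3 Drp1 KO, were compared. Per the methods and labels, the authors prepared TruSeq Stranded mRNA libraries, sequenced them paired-end and quantified them with kallisto 0.46.1 against Ensembl cDNA of GRCm39. The deposited tables give, for each transcript, a length, an effective length, an estimated count and TPM. The labels give 10% L929 medium and 2.1% oxygen, and the methods state other values.

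Of 116873 transcripts, 116159 (99.4%) matched GENCODE by identifier, and the rest, 0.542% to 0.575% of the counts, were left out. Estimated counts were summed per gene, rounded and tested with edgeR 4.0.16 (quasi-likelihood, TMM, at least 10 counts in total, p-values adjusted over all genes by Benjamini-Hochberg) in R 4.3.3. The SE was taken as the log2 fold change over the root of its F statistic. CPM is TMM-scaled. TPM deposited by the authors was used to compare levels between genes, for the set's share of TPM in each library and for length-scaled counts. The floor of 3 counts covers counting error only. The script was tested on simulated data.

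The pairing was checked on 12248 genes: libraries of the same number deviated together, with correlations of 0.510, 0.204 and 0.298, so the numbers were taken to pair libraries, although Drp1 KO library 3 correlated more with WT library 2 (0.326). The labels do not say what a number shares. Pseudogene copies were found with blastn 2.17.0. Named members were those past the adjusted p, the 2 smallest p-values in each direction and the highest and lowest TPM in each complex, isoform pairs and core subunits, and, of members called with the block, the 6 smallest p-values in each direction. Ndufa13, Atp5me, Atp5pd, Cox5b, Cox5b-ps and the members named for copies or transcripts alone were chosen after their values were seen. The members and lists were chosen with earlier results of these data known. For 1 member of complex I, values are not reported here.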

Additional observations from a re-analysis of the deposited data

How the results depend on the processing

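The counts of members and of other pathway genes past a threshold, the medians by complex and the fold changes of named members were recomputed under 19 other settings, 18 for Cox4i2 and Ndufa4l2, which filterByExpr removed. Transcript pairs, TPM levels, library sums and promoter motifs were not recomputed. The count of members past an adjusted p under 0.05, 2 as reported, was 12 with DESeq2, 4 with median-of-ratios size factors, 5 with library size only, 5 with filterByExpr, 11 with no filter beyond 1 count, 4 with length-scaled counts, 5 with a gene length offset and 5 with a GC content offset. With the replicate block it was 20, with block and length offset 23, and with block and GC offset 19; Ndufs5 and Atp5mg were among the 20. Leaving out 1 library gave 0 to 15: 0 when library 2 of either group was left out, 1 when WT library 3 was and 15 without Drp1 KO library 1. Adding pseudogene copies matched by sequence, a setting chosen after seeing the data, left 1 (Ndufs5). Calls over all genes also moved between settings, from 424 higher and 197 lower in the main fit to 663 and 492 with DESeq2. With the block they were 1246 and 966, with block and length offset 1101 and 1205, and with block and GC offset 948 and 1126. Leaving out library 2 gave 139 and 42 for WT, and 224 and 44 for Drp1 KO. At the study's fold and p threshold the main value of 16 rose to 27 with length-scaled counts and ranged from 12 to 28 without 1 library, the highest without Drp1 KO library 1. For the other pathway genes the count of 0 became 4 with DESeq2, 1 with library size only, 5 with no filter beyond 1 count, 2 with either offset, 11 with the replicate block, 13 and 12 with the block and the length or GC offset, and 0 to 12 without 1 library, the highest without WT library 1. The cause of these changes was not tested.

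The median log2 fold change of all members ranged from -0.093 to -0.0013 and that of complex V from -0.23 to -0.074, while that of complex III became 0.048 with length-scaled counts and those of complexes I and II crossed 0 by less than the spread between libraries. Some named members changed sign. With length-scaled counts the log2 fold change was 0.0054 for Atp5f1b, -0.026 for Cox6a1, -0.20 for Cox7a1 and 0.19 for Uqcrc1. With the gene length offset it was -0.032 for Cox6a1 and -0.021 for Cox7a1, and with the block added -0.047 and -0.011. With the GC offset Cox7b was at -0.097, and with the block added at -0.095. Ndufb4 was at 0.052 with copies added, whether found by name or by sequence. Without 1 library, the ranges were -0.17 to 0.017 for Atp5f1b, -0.065 to 0.16 for Atp5mc3, -0.82 to 0.13 for Cox4i2, -0.20 to 0.14 for Cox6a1, -0.063 to 0.83 for Cox6b2, -0.082 to 0.27 for Cox7a1, -0.11 to 0.17 for Cox7b, -0.30 to 0.018 for Cox8a, -0.062 to 0.21 for Ndufs3, -0.081 to 0.18 for Ndufs7, -0.28 to 0.12 for Ndufs8, -0.12 to 0.019 for Ndufv2 and -0.22 to 0.00046 for Uqcrc1. With 3 libraries a group, an exact permutation test of 1 value cannot go below 0.1, and members near the floor of 3 counts carry no usable fold change.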
